A study of Mus musculus with 8 samples.

Results

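The genes described here are those of classical MHC class I antigen presentation, together with Cd74, the invariant chain of MHC class II. They were the 8 genes with the symbols H2-D1, H2-K1, B2m, Tap1, Tap2, Tapbp, Cd74 and Nlrc5 in a table of 23143 genes. They were chosen by name, with earlier results of these data known. All 8 had a row and counts in every library. The study followed RNA in RAW264.7 cells, a mouse macrophage line, at a high temporal resolution after stimulation with lipopolysaccharide (LPS, from E. coli serotype O111:B4), the bacterial cell wall component that TLR4 senses. One culture was untreated (0 min), and the others received 100 ng/ml LPS for 15, 30, 45, 60, 75, 90 or 120 min. Each time point is 1 library, so every test compares 2 libraries and not 2 conditions, and the spread between cultures is unknown. The labels call the RNA fraction cytoplasmic and the molecule total RNA.

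MHC class I molecules show peptides from inside the cell to CD8 T cells. A heavy chain (H2-D1, H2-K1) pairs with beta 2-microglobulin (B2m), the TAP transporter (Tap1 with Tap2) pumps peptides into the endoplasmic reticulum, and tapasin (Tapbp) holds the empty class I molecule at the transporter until a peptide fits. Nlrc5 is the transactivator of class I genes and acts on a promoter module with an X2 box and a Y box, while NF-kB and interferon regulatory factors bind upstream of it. Cd74 fills the peptide groove of new class II molecules and guides them to endosomes, and at the cell surface it is the receptor of the cytokine Mif.

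Promoter letters are shown for the members whose windows held the X2 and Y letters in one arrangement, and for Tap1, the transporter gene that fell. The RefSeq promoter table of GRCm38.p6 holds windows of 250 bases before to 50 bases after a gene start for H2-D1, H2-K1, B2m, Tap1 and Tapbp; Tap2, Cd74 and Nlrc5 had no entry. Capitals mark matches to the letters searched on both strands: GGNNTTNCC (NF-kB-like), GAAANNGAA (ISRE-like), TTCNNNGAA (GAS), TGACG (X2 core) and CCAAT (Y box, ATTGG on the other strand). Sequences run 5′ to 3′ in the direction of the gene. The first covers positions -140 to -26 relative to the more downstream of the 2 H2-K1 starts in the table, at chr17:34000359-34000473 on the minus strand. The second covers positions -139 to -49 relative to the B2m start, at chr2:122147548-122147638 on the plus strand. No exon of the GENCODE vM21 annotation overlaps either of them. The H2-K1 stretch does lie inside the RefSeq span of the gene, 33996012 to 34000619.
H2-K1: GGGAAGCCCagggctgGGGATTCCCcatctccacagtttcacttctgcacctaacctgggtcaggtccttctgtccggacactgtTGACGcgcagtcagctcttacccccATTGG
B2m: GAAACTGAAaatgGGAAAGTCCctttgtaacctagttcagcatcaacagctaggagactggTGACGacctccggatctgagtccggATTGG

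The X2 core and the Y box letters started 25 bases apart in H2-K1, H2-D1 and B2m. The 30 bases from the X2 core onward, at chr17:34000359-34000388 (minus strand) for H2-K1, chr17:35262993-35263022 (plus) for H2-D1, chr2:122147609-122147638 (plus) for B2m and chr17:34187470-34187499 (plus) for Tap1, compare as follows.
H2-K1: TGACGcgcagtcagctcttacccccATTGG
H2-D1: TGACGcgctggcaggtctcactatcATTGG
B2m: TGACGacctccggatctgagtccggATTGG
Tap1: TGACGacagagggtcctgccctcaatctgg
The Tap1 window had the X2 core letters without Y box letters at this distance. The H2-D1 bases are also annotated as untranslated exon of a longer H2-D1 transcript, and the Tap1 bases as untranslated exon of a Psmb9 transcript on the opposite strand. Over the 115 bases shown for H2-K1, 104 (90.4%) were the same in H2-D1, including the pair of NF-kB-like matches. TGACG followed by ATTGG, with starts 10 to 40 bases apart, occurred in 311 of 32851 promoter windows (0.947%). The single letters were common: 16.0% of windows held the NF-kB-like letters, 8.56% the ISRE-like, 8.30% the GAS, 20.8% the X2 core and 37.4% the Y box. The Tapbp window held Y box letters, at positions -248 and -165, and none of the other letters. A match of letters is a description of the window and not a bound site. Variants of these letters were not searched, so a window without a match may still hold one.

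Among the 8 libraries, total counts ranged from 100250892 to 159077286. The share of the ribosomal RNA precursor Rn45s was 8.18 to 9.11% in the 0, 30, 60 and 120 min libraries and 13.0 to 20.5% in the 15, 45, 75 and 90 min libraries. Of 9 macrophage markers with a row, 9 had counts, and their summed normalized count was 699849 to 809149. Lyz2 was the largest part of this sum, at 395911 to 492761, while Mrc1 had 20.5 to 36.8 and Marco 0 to 2.82. The sums were 720 to 1430 for 5 dendritic cell markers, 24.3 to 48.1 for B cell, 8.89 to 24.7 for T cell and 0 to 1.27 for fibroblast or epithelial markers. Within the dendritic cell sum, Itgax alone had 468 to 1185. Of the 5 markers in each of these lists, 4 dendritic cell, 4 B cell, 4 T cell and 1 fibroblast or epithelial marker had counts in some library. Those at 0 in every library were Cd209a (dendritic cell), Pax5 (B cell), Cd3g (T cell), Col1a1, Col1a2, Epcam and Krt18.

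Resting cells expressed the subunits of class I at very different levels per length of mRNA. B2m led with 366.6 rpkm (reads scaled to the length of unique sequence and to the library total, 95% counting interval 363.0 to 370.3). Cd74 followed at 116.2 rpkm (114.6 to 117.7), H2-D1 at 81.2 rpkm (80.1 to 82.3) and H2-K1 at 60.3 rpkm (59.3 to 61.4). Tapbp stood at 32.8 rpkm (32.2 to 33.4). The transporter mRNAs Tap2, at 6.43 rpkm (6.20 to 6.68), and Tap1, at 6.28 rpkm (6.03 to 6.53), did not differ beyond counting error. Nlrc5 was lowest with 1.79 rpkm (1.71 to 1.88).

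Over 120 min of LPS the ratios of the 8 genes to the untreated library ran from 0.573-fold (Tap1) to 1.54-fold (H2-K1). A gene was called where the log2 ratio of normalized counts was beyond 0.5 and the unadjusted p of the exact negative binomial test was under 0.05. By this rule 1 of the 8 genes was called in 1 comparison, Tap1 as lower at 120 min against 0 min. No member was called higher or lower at 15 min, where 0.259% and 0.147% of the 16967 genes tested were called. None was called at 30 min (1.07% of all genes higher, 0.183% lower), at 45 min (3.45% and 1.39%) or at 60 min (3.11% and 2.16%). None was called at 75 min (4.53% and 3.35%) or at 90 min (5.34% and 4.17%). At 120 min 7.08% of genes were called higher and 6.19% lower, beside 0 and 1 of the members. Between 60 and 120 min 3.36% were called higher and 3.42% lower, and no member. One called gene is the smallest count above 0 that 8 genes can show, so it does not set them apart from other genes.

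**Figure D1:**
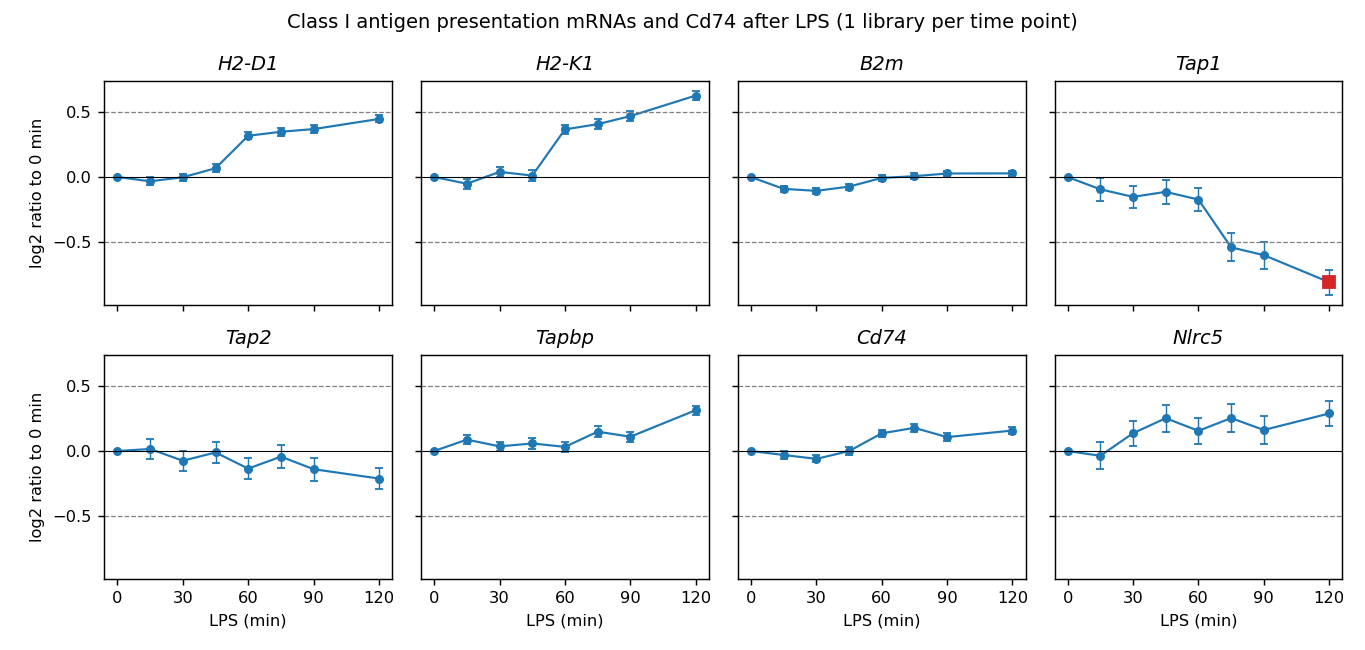
Log2 ratio of normalized counts to the untreated library (y axis) over minutes of LPS (x axis) for the 8 genes, 1 library per point, with exact 95% counting intervals as bars and the fold limit of the call at ±0.5 as dashed lines. H2-D1 and H2-K1 were higher from 60 min on, Tap1 was lower from 75 min on, and the red square marks the one called value, Tap1 at 120 min with a log2 ratio of -0.80.

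The heavy chains H2-D1 and H2-K1, the peptide-binding chains of the classical class I molecules, were higher from 60 min on without passing the test. H2-D1 had 16729 normalized counts in the untreated library and 16352, 16707 and 17524 after 15, 30 and 45 min of LPS, then 20817, 21264, 21567 and 22759 after 60, 75, 90 and 120 min. All libraries from 60 min on lay above all earlier ones. At 120 min H2-D1 was at 1.36 times the untreated level (counting interval 1.34 to 1.39, log2 ratio 0.44, unadjusted p = 0.202, adjusted p = 0.815 in edgeR's exact negative binomial test). H2-K1 had 10072 normalized counts without LPS and 9719, 10350 and 10148 after 15, 30 and 45 min, then 12965, 13326, 13911 and 15510 after 60, 75, 90 and 120 min. Again the late libraries did not overlap the early ones, with 120 min the highest. H2-K1 reached 1.54 times the untreated level at 120 min (1.50 to 1.58, log2 ratio 0.62). That is past the fold limit, but the unadjusted p was 0.0745 and the adjusted p 0.483 in edgeR's exact negative binomial test. Scaled by total counts in place of size factors, the log2 ratios at 120 min were still above 0, at 0.24 for H2-D1 and 0.42 for H2-K1. The patterns of H2-D1 and H2-K1 across the 8 libraries were close (Pearson r = 0.986 of log2 values, n = 8 libraries of one time course). With Cd74 the r was 0.951 for H2-D1 and 0.912 for H2-K1, so a close pattern was not particular to the heavy chains.

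The counts of these heavy chains have limits of their own. Reads that matched more than one gene were discarded, and 207 of the 2045 58-base stretches of H2-D1 and 73 of the 1562 of H2-K1 also occur in other transcripts, mostly of class I genes. RAW264.7 derives from BALB/c mice, whose class I alleles differ from those of the C57BL/6 reference, and up to 2 mismatches per read were allowed. The part of these factors in the levels was not tested.

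B2m, the light chain of class I molecules, had the narrowest range of the 8 genes. It had 33003, 30990, 30670, 31362, 32843, 33144, 33625 and 33644 normalized counts from 0 to 120 min, lowest at 30 min and highest at 120 min. The highest library was 1.10 times the lowest, and the log2 ratio at 120 min was 0.03 with size factors and -0.17 with total counts. Among 8401 genes with a mean of at least 1000 normalized counts, the B2m ratio at 120 min stood at percentile 51.3, H2-D1 at 82.6 and H2-K1 at 89.2.

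The transporter subunits Tap1 and Tap2 both had their lowest level at 120 min. Tap1 had 2065 normalized counts in the untreated library and 1935, 1859, 1909 and 1832 after 15, 30, 45 and 60 min of LPS. It then had 1422, 1365 and 1182 after 75, 90 and 120 min, each below all of the libraries up to 60 min. At 120 min Tap1 was at 0.573 of the untreated level (counting interval 0.536 to 0.611), a log2 ratio of -0.80 (unadjusted p = 0.0238 and adjusted p = 0.226 in edgeR's exact negative binomial test). Tap1 was called lower there by the unadjusted rule, and the call is lost with adjustment for the number of genes. At 75 min the log2 ratio was -0.54 and at 90 min -0.60, with unadjusted p = 0.131 and 0.0931 in the same edgeR exact test. Between 60 and 120 min the log2 ratio was -0.63 (unadjusted p = 0.0753 in the edgeR exact test). Fewer cells with the mRNA and less mRNA per cell cannot be told apart.

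The libraries with a high Rn45s share are interleaved with the others, except that 75 and 90 min follow each other. Tap1 was therefore also read within each kind. In the 0, 30, 60 and 120 min libraries its normalized count was 2065, 1859, 1832 and 1182, and in the 15, 45, 75 and 90 min libraries 1935, 1909, 1422 and 1365. It was lowest at the last time point of both kinds. Fitted on the 0, 30, 60 and 120 min libraries alone, the log2 ratio at 120 min was -0.80 and was called lower. In that fit 876 of 16368 genes were called lower at 120 min. It uses the same 0 and 120 min counts of Tap1, so the ratio could hardly move. The part of the Rn45s share in the Tap1 values was not tested.

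Tap2, the partner of Tap1 in the transporter, had 2430, 2456, 2308, 2411, 2214, 2359, 2207 and 2100 normalized counts from 0 to 120 min. The 120 min library was lowest, at a log2 ratio of -0.21, and its ranges before and from 60 min overlapped. Among the 8401 genes, the log2 ratio at 120 min stood at percentile 4.87 for Tap1 and 25.6 for Tap2, and whether the ratios of the pair differ was not tested. Only 17 of the 58-base stretches are shared between Tap1 and Tap2, 0.576% of those of Tap1.

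Tap1 lies between the genes of immunoproteasome subunits on chromosome 17. In GRCm38 the order is Psmb9 (34182030 to 34187330), Tap1 (34187556 to 34197225), Psmb8 (34198195 to 34201454) and Tap2 (34204479 to 34216321). Between the starts of Psmb9 and Tap1, which lie on opposite strands, there are 225 bases. Psmb9 had 1513 normalized counts at 0 min and 1153 at 120 min (log2 ratio -0.39), and Psmb8 had 8096 and 7010 (-0.21). Neither was called, so of the 4 neighbours Tap1 alone passed the limits at 120 min. Psmb9, like Tap1, was lower in every library from 60 min on than in all earlier ones. Its normalized counts were 1385 to 1513 before 60 min and 1153 to 1304 from 60 min on. For Psmb8 and Tap2 these ranges overlapped. The genes whose pattern over the 8 libraries was most like that of Tap1, among 10494 genes with a mean of at least 100, were Xrcc3 (r = 0.993), BC055324 (0.992) and Pex10 (0.988). Their log2 ratios at 120 min were -0.55, -0.31 and -0.66, and none was called.

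**Figure D2:**
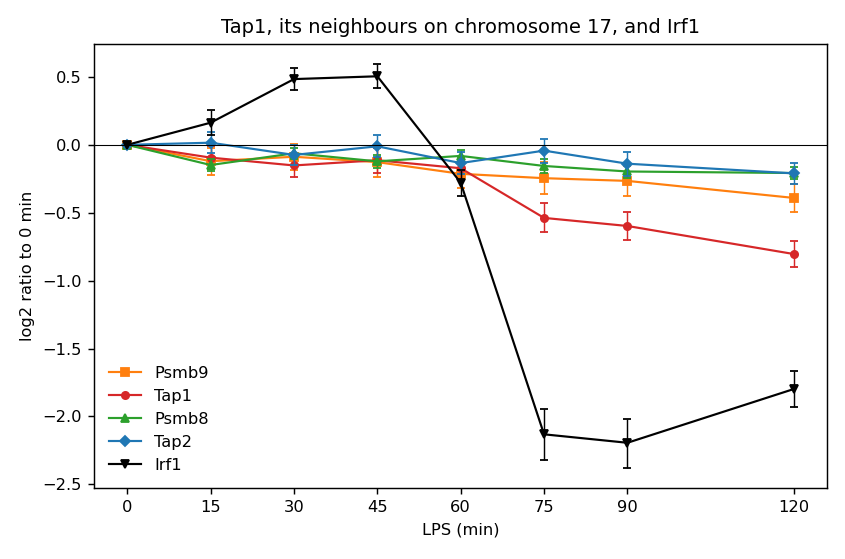
Log2 ratio of normalized counts to the untreated library (y axis) over minutes of LPS (x axis) for Tap1, its neighbours Psmb9, Psmb8 and Tap2, and the transcription factor Irf1, 1 library per point with exact 95% counting intervals. From 75 min Tap1 lay below its neighbours, reaching -0.80 at 120 min against -0.39 for Psmb9, and Irf1 was lower still.

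Tapbp, the tapasin gene, had 10482 normalized counts at 0 min and 11135, 10746, 10912, 10717, 11615, 11310 and 13017 from 15 to 120 min. The 120 min library was the highest (log2 ratio 0.31, 1.24 times the lowest library), and Tapbp was not called. In the peptide loading list, which adds Tapbpl, Calr, Canx, Pdia3 and Erap1 to the light chain, transporter and tapasin, 0 of 9 genes were called higher and 1 lower, Tap1, at 120 min, beside 7.08% and 6.19% of all genes. The median log2 ratio of the list was 0.03 beside -0.01 over 12166 genes with a mean of at least 10. Pdia3, a disulfide isomerase of the loading complex, was called higher at 45 min only, with 8609 normalized counts at 0 min and 16486 at 45 min. It had 9720 at 60 min, then 12952, 13788 and 12701 at 75, 90 and 120 min. These last ratios (log2 0.59, 0.68 and 0.56) were past the fold limit but not called.

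Nlrc5, the class I transactivator, had 1380, 1346, 1517, 1642, 1536, 1643, 1543 and 1684 normalized counts from 0 to 120 min. Its level was lowest at 15 min and highest at 120 min, a factor of 1.25, and the ratio at 120 min (log2 0.29) was not called. The list of class I and class II transcription factors includes Nlrc5 and has 18 genes with counts. Of these, 3 were called higher and 3 lower at 120 min, where 7.08% and 6.19% of all genes were called. The median over the 17 genes with a mean of at least 10 was -0.09, beside -0.01 over all such genes. The NF-kB subunits Nfkb1 (log2 ratio 1.32) and Rela (1.14) were higher. Irf1, an interferon regulatory factor that acts on class I promoters, had 1684 normalized counts in the untreated library, 1886, 2356 and 2390 after 15, 30 and 45 min and 1388, 384, 368 and 485 after 60, 75, 90 and 120 min. Irf1 was called lower from 75 min on, with a log2 ratio of -1.80 at 120 min, in the same libraries in which Tap1 was lowest. Stat2, which relays interferon signals, was lower as well (-1.26). Irf9, which binds DNA together with Stat2, was called higher (1572 and 2730 normalized counts, log2 ratio 0.80), and Irf8 lower (-0.85); both are named here after their values were seen. The part of these factors in the levels of the 8 genes was not tested.

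The mRNAs of the peptide supply were described by a list of 16 genes of the immunoproteasome, its activators and the cytosolic peptidases. Of these 1 was called higher at 120 min and 0 lower, beside 7.08% and 6.19% of all genes, and the list median was 0.10 beside -0.01. The called gene was Tpp2, which encodes the giant protease tripeptidyl peptidase II (12038 normalized counts at 0 min and 19647 at 120 min, log2 ratio 0.71). The inducible catalytic subunits Psmb8, Psmb9 and Psmb10 were at -0.21, -0.39 and -0.18.

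H2-D1 and H2-K1 were read within a list of class I heavy chain and class I-like genes that includes both. Of 38 genes listed, 37 had a row, 27 had a count and 19 had a mean of at least 10 normalized counts. At 120 min 5 of the 27 genes were called higher and 1 lower, where 7.08% and 6.19% of all genes were called. The median log2 ratio of the 19 genes was 0.44, beside -0.01 over the 12166 genes of such a mean. That median is the log2 ratio of H2-D1 itself, so it is no separate background for this gene. The called genes included H2-K2 (666 normalized counts at 0 min and 1215 at 120 min, log2 ratio 0.87) and H2-Q1 (132 and 230, log2 ratio 0.80). H2-T3, which is not among the 19, had 3 reads at 0 min and a ratio of 5.37 at 120 min, with a counting interval of 1.55 to 28.6. Mr1, which presents vitamin B metabolites, was called lower (100 and 51.1, log2 ratio -0.97). The remaining calls were H2-Q4 (log2 ratio 0.75) and H2-Q5 (0.76), named here after their values were seen. H2-Q5 was called higher at 30 and 45 min too, and peaked at 45 min with 690 normalized counts against 294 at 0 min.

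The adjusted p of the 6 called class I genes at 120 min was 0.170 to 0.368 in edgeR's exact negative binomial test. H2-L, a classical heavy chain of BALB/c mice, had 8008 normalized counts at 0 min and 11204 at 120 min (log2 ratio 0.48, not called). Of the 58-base stretches, 135 of 1510 in H2-K2, 200 of 1967 in H2-Q1, 147 of 1736 in H2-Q4 and 206 of 1099 in H2-Q5 occur in other transcripts, so these genes are uncertain where reads match near-identical copies.

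**Figure D3:**
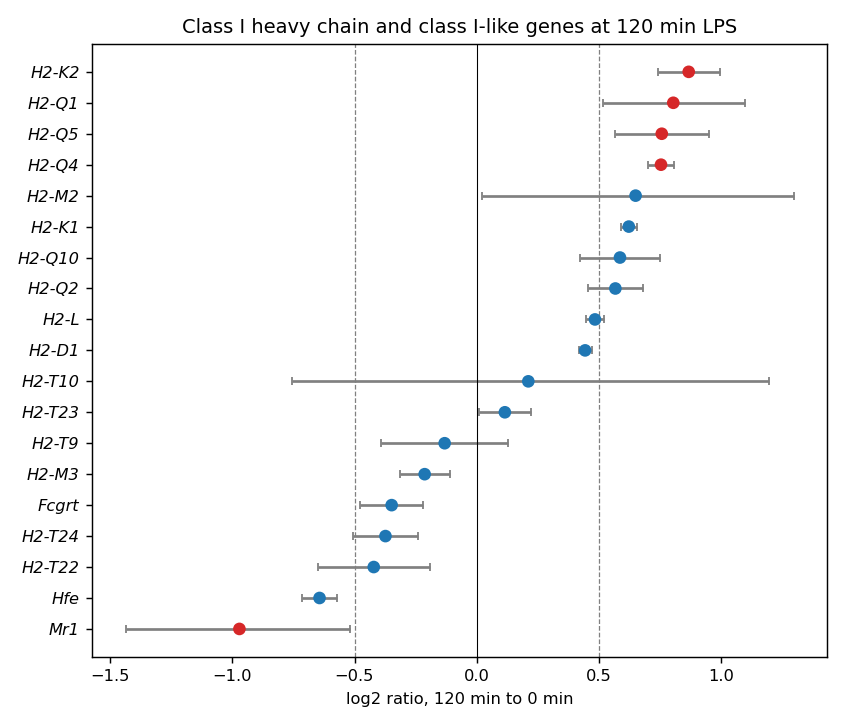
Log2 ratio of normalized counts at 120 min LPS to 0 min (x axis) for the 19 class I heavy chain and class I-like genes with a mean of at least 10 normalized counts, 1 library per time point; bars are exact 95% counting intervals, red points are called genes, and dashed lines mark the fold limit. H2-D1 and H2-K1 sit at 0.44 and 0.62 among genes that range from -0.97 (Mr1) to 0.87 (H2-K2).

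Cd74, the invariant chain, had 18425 normalized counts without LPS, 18046, 17675 and 18416 after 15, 30 and 45 min, and 20239, 20831, 19836 and 20540 after 60, 75, 90 and 120 min. The late libraries were above the early ones by a mean of 1.12 times, and the ratio at 120 min was 1.11-fold (log2 0.16), not called. The sign of the Cd74 ratio at 120 min depends on the scale: it was -0.04 with total counts. Among the members, the 4 genes whose ranges before and from 60 min did not overlap were H2-D1, H2-K1 and Cd74 (late above) and Tap1 (late below). This split at 60 min was chosen after the values were seen, and among the 8401 genes with a mean of at least 1000, 20.6% lay above and 16.0% below in the same way.

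The class II chains that Cd74 serves were near 0 in these cells. H2-Aa had 6 reads at 0 min and 5 at 120 min, H2-Ab1 0 and 3, and H2-Eb1 1 and 2. The count of 0 for H2-Ab1 at 0 min allows up to 0.0244 rpkm, the upper end of its 95% counting interval. Ciita, the class II transactivator, had 5 reads at 0 min and 10 at 120 min. Cd74 itself had 21537 reads at 0 min, so invariant chain mRNA was present at 116.2 rpkm beside 0.0428 rpkm of H2-Aa (counting interval 0.0157 to 0.0931).

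Other genes of the class II pathway were present. H2-DMa, a chain of the peptide editor DM, had 990 normalized counts at 0 min and 725 at 120 min, while the DM beta chains had fewer reads, 14 and 13 for H2-DMb1 and 42 and 28 for H2-DMb2. The beta chains share 24.1 and 27.1% of their 58-base stretches with other transcripts. Ctss, the cathepsin that trims the invariant chain, had 49886 and 45941 normalized counts. Of 17 class II pathway genes with a count, Cd74 among them, 0 were called higher and 1 lower at 120 min. The shares over all genes were 7.08% and 6.19%. The median was -0.23 over the 13 genes with a mean of at least 10, beside -0.01. The called gene was March1, a ubiquitin ligase that removes class II from the cell surface, with 147 normalized counts at 0 min and 30.0 at 120 min (log2 ratio -2.29).

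**Figure D4:**
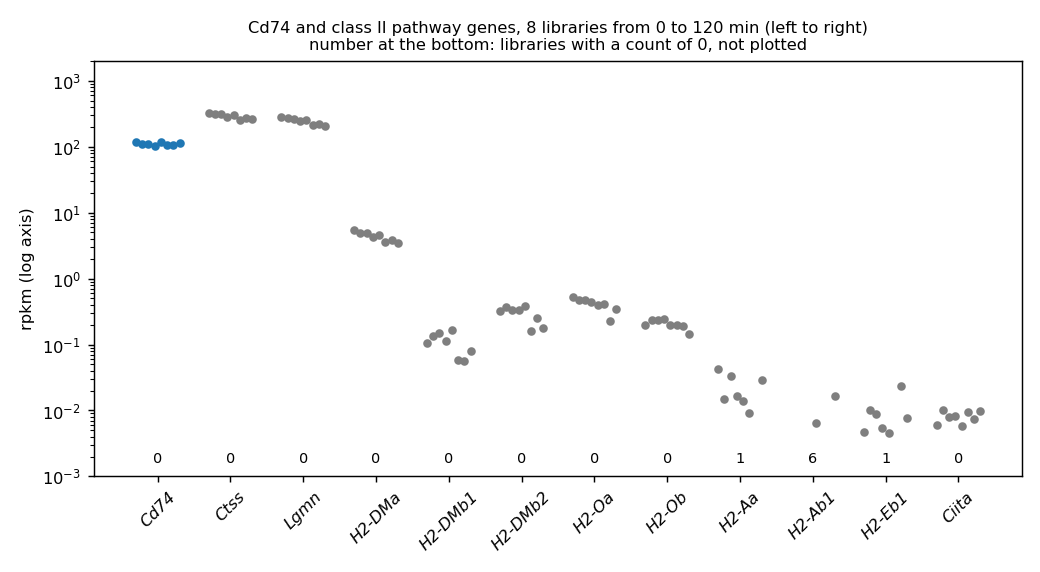
Rpkm (y axis, log scale) of Cd74 and class II pathway genes in the 8 libraries, from 0 min at the left to 120 min at the right within each gene; libraries with a count of 0 are not plotted and their number stands at the bottom. Cd74 starts at 116.2 rpkm, while H2-Aa, H2-Ab1, H2-Eb1 and Ciita lie below 0.1 rpkm.

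Cd74 is also the receptor of Mif, with Cd44 and chemokine receptors as partners. Mif had 50152 normalized counts at 0 min and 50367 at 120 min, and was lower in between, with 41949 at 45 min the lowest. Of the 6 genes with counts in this list, Cd74 among them, 2 were called higher and 1 lower at 120 min. The shares over all genes were 7.08% and 6.19%, and the list median was 0.22 beside -0.01. Cd44, the signalling partner of Cd74, was higher (31230 normalized counts at 0 min, log2 ratio 1.37 at 120 min), Cxcr2 was higher (0.72) and Cxcr4 was lower (369 normalized counts at 0 min, log2 ratio -1.89 at 120 min).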

How the data were processed

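RNA of 8 RAW264.7 cultures, 1 per time point, had been depleted of ribosomal RNA and sequenced with a strand-marking kit. The values that the authors deposited are raw counts of reads for each gene symbol. According to the methods, 58-base reads were mapped with Bowtie (version not given in the sources used here) to mm10 RefSeq transcripts with at most 2 mismatches, and reads matching several gene symbols were dropped. The submitters' processing notes name CASAVA 1.8.2 and DESeq 1.10.1. No column was left unused.

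Counts were scaled by median-of-ratios size factors. A parametric dispersion trend (0.0287 + 0.853/mean) treated all 8 libraries as replicates of one condition. For its own fit of this kind, the paper states that variance is overestimated rather than underestimated. A gene that was not called is therefore not shown to be unchanged. Library pairs were compared by edgeR 4.0.16 (R 4.3.3) with the exact negative binomial test, two-sided, for 16967 genes with a count. Adjusted p-values are Benjamini-Hochberg over these genes. A quasi-likelihood test could not be fitted with 1 library per time point. The code was tested on simulated data. Ratios carry exact conditional binomial and rpkm exact Poisson 95% intervals, which cover counting error only. Rpkm used unique 58-base stretches of transcripts in GENCODE vM21 on GRCm38, found through their RefSeq accessions. H2-L, without a match, was therefore not counted among shared stretches. Any stretch that H2-D1 or H2-K1 shares with H2-L stayed in their unique length, which would make their rpkm too low. Positions and promoter windows are from RefSeq GRCm38. Tables were handled with Python 3.11.15 (numpy 2.4.6, pandas 2.3.3).

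The genes, lists and motifs were chosen with earlier results of these data known. Named were the 8 genes, the 3 genes most like a called one in pattern (log2 of normalized count + 1) and up to 4 called genes per list by size at 120 min. Alternatives were other scales, dispersion trends, filters and limits, and each library left out.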

Additional observations from a re-analysis of the deposited data

How the results depend on the processing

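Without the test, at the fold limit alone, 1 gene was lower at 75 min, 1 at 90 min, 1 at 120 min against 60 min (Tap1 each time) and 1 higher at 120 min (H2-K1); of all 16967 genes, 2681, 2710, 2616 and 3755 passed in the same way. Scaled by total counts, Tap1 was called lower at 75 min (1 gene, log2 ratio -0.87) and at 90 min (1 gene, -0.86), where 1097 and 1022 of all genes were lower against 568 and 707 with size factors. H2-K1 was called higher at 120 min (1 gene) when genes with a mean under 10 were left out before the fit. In that setting 1202 of 12166 genes were called higher. The Tap1 call at 120 min was lost (0 genes) with edgeR's own dispersion trend, with Benjamini-Hochberg adjusted p and at a log2 limit of 1. In these settings 706, 473 and 654 of all 16967 genes were called lower. The Tap1 log2 ratio was -1.01 with total counts and -0.83 with TMM. Tap1 was called with both, with total counts without Rn45s and with each other library left out (-0.81 to -0.80). All of these settings keep the same Tap1 counts. Total counts changed every log2 ratio at 120 min by -0.20, at 75 min by -0.33 and at 90 min by -0.26, so ratios above 0 by less than that change sign by construction. Over all genes, 1202 were called higher and 1050 lower at 120 min, against 687 and 1254 with total counts, 758 and 1441 without Rn45s, and 601 and 473 with adjusted p. H2-D1 and H2-K1 were above their early ranges from 60 min on under each scale, an alternative added after seeing the data. Cd74 was so with TMM but with neither total scale, and Tap1 was below with TMM and total counts without Rn45s but not with total counts. Tap2 was below its early range under both total scales. No paired analysis was possible because each time point has 1 library. Depth limits the class II chains and H2-T3, with under 20 reads per library.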
